A study of Mus musculus with 7 samples.

Results

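The granins and the enzymes that process prohormones are 9 genes here: Scg2, Scg3, Chga, Chgb and Vgf, which encode granins, Scg5, which encodes a chaperone, and Pcsk1, Pcsk2 and Cpe, which encode processing enzymes. They were chosen by name among 21883 protein-coding genes of a RefSeq gene table, with earlier results of these data known. Comparisons with all protein-coding genes are therefore descriptions only. Peaks of Fos chromatin immunoprecipitation were taken within 50 kb of the span of each gene on GRCm38 (mm10). Granins are acidic proteins that are packed with neuropeptides and hormones into dense-core vesicles. Prohormone convertases cut precursors in these vesicles at pairs of basic residues, and carboxypeptidase E, the product of Cpe, trims the basic residues left at the cut ends. Hippocampal neurons release such peptides during activity. Fos, a subunit of the transcription factor AP-1, is made within the first hour after seizures.

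The mice were wild-type C57BL/6J animals of 2 months, and chromatin came from dissected hippocampus. One group received PBS (saline), and the other received kainic acid, a glutamate receptor agonist that provokes seizures, as 2 intraperitoneal injections of 10 mg/kg separated by 30 min. Kainic acid mice with level 4 seizures were killed 1 hour after the first injection. There were 3 libraries in each group, each with its own peak list, and 1 input library without antibody, which was not analysed here. Nothing in the labels says whether the libraries came from separate animals, so p-values measure only the spread between these libraries, which may be technical. Whole hippocampus mixes cell types, so fewer cells with a bound site and less binding in each cell cannot be told apart, and peak lists hold no expression values against which the tissue label could be checked.

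The lists held 15009, 63197 and 29650 peaks in kainic acid replicates 1, 2 and 3, and 7, 3277 and 2 peaks in saline replicates 1, 2 and 3. The list of kainic acid replicate 2 is thus the longest, and saline replicates 1 and 3 hold almost no peaks anywhere. Peaks that overlapped by at least 1 bp were merged, and a merged region that 2 or 3 of the kainic acid libraries called is named a kainic acid region. There were 26862 such regions in the genome, of which 47 lay in the windows of the 9 genes. Of these 47, 27 were left without kainic acid replicate 2, 31 without replicate 3 and 43 without replicate 1. Of each peak the lists give a fold, which is the authors' linear ratio of the peak over its local background within 1 library. Folds are not scaled between libraries, so each was turned into a percentile rank within its list, where 0 is the highest fold and 100 the lowest.

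Promoter sequences were given for 7 of the 9 genes (RefSeq, GRCm38.p6), from 250 bases before to 50 after a start site. None was given for Vgf or Cpe, so neither could be searched. The letters TGACGTCA, the cyclic AMP response element (CRE) that factors of the CREB and AP-1 families can bind, were in 3 of these 7 windows, namely those of Scg2, Chgb and Pcsk1. They are in 2.23% of the 21262 windows of protein-coding genes and in 1.79% of the windows of all 32851 annotated genes in the table. The AP-1 letters TGACTCA or TGAGTCA were in 0 of the 7 and are in 4.66% and 5.20% of those windows. Both strands were searched. The AP-1 letters are each other's reverse complement, the CRE letters are their own, and neither motif contains the other. A match of letters does not show binding. The 3 CRE-bearing sequences are shown because the Fos peaks at these genes lie close to them in different ways. For Scg2 and Chgb the 250 bases before the start site are printed, and for Pcsk1 30 bases around the site, 5′ to 3′ on the gene's strand, with the CRE letters in capitals.
Scg2 (chr1:79440027-79440276, minus strand): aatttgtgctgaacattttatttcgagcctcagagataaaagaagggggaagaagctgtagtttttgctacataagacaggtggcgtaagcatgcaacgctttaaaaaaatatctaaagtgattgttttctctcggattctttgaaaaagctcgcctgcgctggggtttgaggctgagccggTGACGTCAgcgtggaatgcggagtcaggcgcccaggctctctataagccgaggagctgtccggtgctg
Chgb (chr2:132781392-132781641, plus strand): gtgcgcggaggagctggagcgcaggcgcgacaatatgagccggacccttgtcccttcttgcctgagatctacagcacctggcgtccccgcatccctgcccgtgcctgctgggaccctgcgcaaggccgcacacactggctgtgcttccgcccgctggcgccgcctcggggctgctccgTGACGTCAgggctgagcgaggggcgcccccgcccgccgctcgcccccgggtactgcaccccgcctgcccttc
Pcsk1 (chr13:75089768-75089797, plus strand): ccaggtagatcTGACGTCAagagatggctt
The CRE letters begin 68 bases before the start site in Scg2, 72 in Chgb and 78 in Pcsk1. Start sites here are those of the promoter table, and that of Pcsk1 lies inside the gene span.

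Peaks covered the CRE letters of Chgb in kainic acid replicates 2 and 3, with the nearest summits 52 and 132 bp away, and no peak of replicate 1 covered them. In Scg2 no kainic acid peak covered the CRE letters. The nearest region, called in all 3 kainic acid lists, ended 22 bp short of them and had its summits inside the gene. In Pcsk1 the nearest region ended 38 bp short of the CRE letters and was called in kainic acid replicate 3 only. A promoter window was overlapped by a kainic acid region in 2 of the 7 genes, Scg2 and Chgb, against 5.15% of windows of protein-coding genes. Among windows of protein-coding genes with the CRE letters this was 10.3%, and among those without it was 5.03%.

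The comparison of treatments asks whether Fos peaks were called near these genes after kainic acid and not after saline. In the 9 windows together, kainic acid replicates 1, 2 and 3 had 34, 89 and 45 peaks. Saline replicate 2 had 4 peaks, all of them near Vgf, and saline replicates 1 and 3 had 0. The mean was 56.0 ± 29.1 peaks (SD, n = 3) in kainic acid libraries against 1.33 ± 2.31 (SD, n = 3) in saline libraries, and every kainic acid value lay above every saline value. On the scale log10(number of peaks + 1) the difference was 1.49 (1.72 ± 0.211 against 0.233 ± 0.404, SD, n = 3 in each group). The two-sided p was 0.1 by exact permutation over the 20 ways to assign the libraries. A comparison of this size cannot go lower, so it could not pass 0.05. The difference was 1.72 without saline replicate 2 and 1.37 without kainic acid replicate 2.

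The number of peaks near the genes moved with the length of the lists. As a share of its own list, the 9 windows took 0.227% of the peaks of kainic acid replicate 1 (95% Clopper-Pearson interval 0.157 to 0.316), 0.141% of replicate 2 (0.113 to 0.173) and 0.152% of replicate 3 (0.111 to 0.203). In saline replicate 2 the share was 0.122% (0.0333 to 0.312), and its interval contained all 3 kainic acid shares. The intervals cover counting error only. In saline replicates 1 and 3, 0 of 7 and 0 of 2 peaks allow shares of up to 41.0% and 84.2%, so these lists say nothing about a share. The larger number of peaks near these genes after kainic acid and the larger number in the whole lists cannot be told apart.

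**Figure D1:**
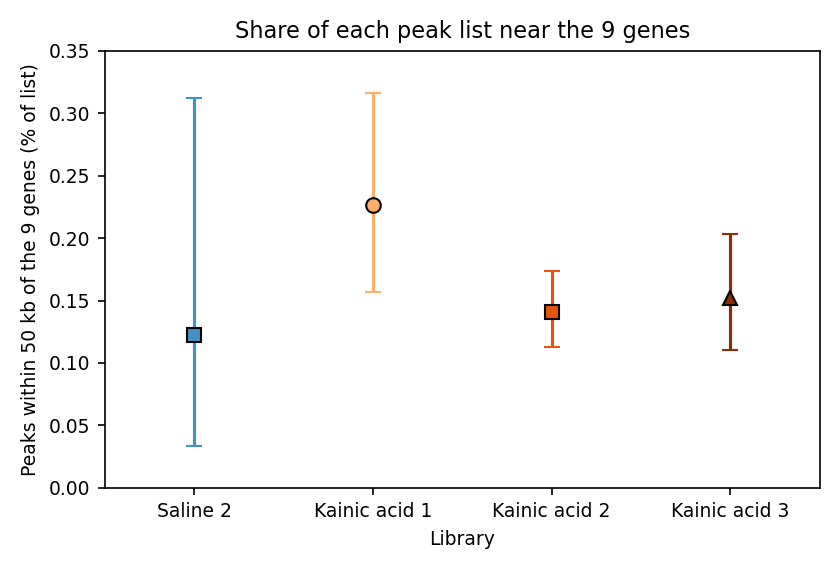
Points give the share of each peak list that lies within 50 kb of the 9 genes, in percent of the peaks of that library, and bars are 95% Clopper-Pearson intervals. Saline 2 (0.122%) has an interval wide enough to contain the 3 kainic acid shares (0.141% to 0.227%), and saline 1 and 3 are not drawn because they hold 7 and 2 peaks.

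Each kainic acid list had a peak near all 9 genes, against 46.3%, 77.4% and 63.3% of all protein-coding genes in replicates 1, 2 and 3 and 44.8% in every one of them. Saline replicate 2 had a peak near 1 of the 9 genes, against 30.2% of all genes. Saline replicates 1 and 3 had a peak near 0 of the 9, against 0.0320% and 0.00% of all genes. By gene, 8 of the 9 had more peaks in every kainic acid list than in any saline list. The exception was Vgf, where kainic acid replicates 1, 2 and 3 had 4, 13 and 8 peaks and saline replicate 2 had 4. Of all protein-coding genes, 33.5% met the same criterion. Cpe had 9, 19 and 7 peaks in kainic acid replicates 1, 2 and 3, the most of the 9 genes in replicates 1 and 2, and Pcsk2 had 5, 18 and 8. In replicate 3 Pcsk2 and Vgf had the most, 8 each. Scg5 had 2, 3 and 2, the fewest in replicates 2 and 3. Chgb and Scg3 each had a single peak in kainic acid replicate 1, against 8 and 6 in replicate 2 and 4 and 3 in replicate 3.

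**Figure D2:**
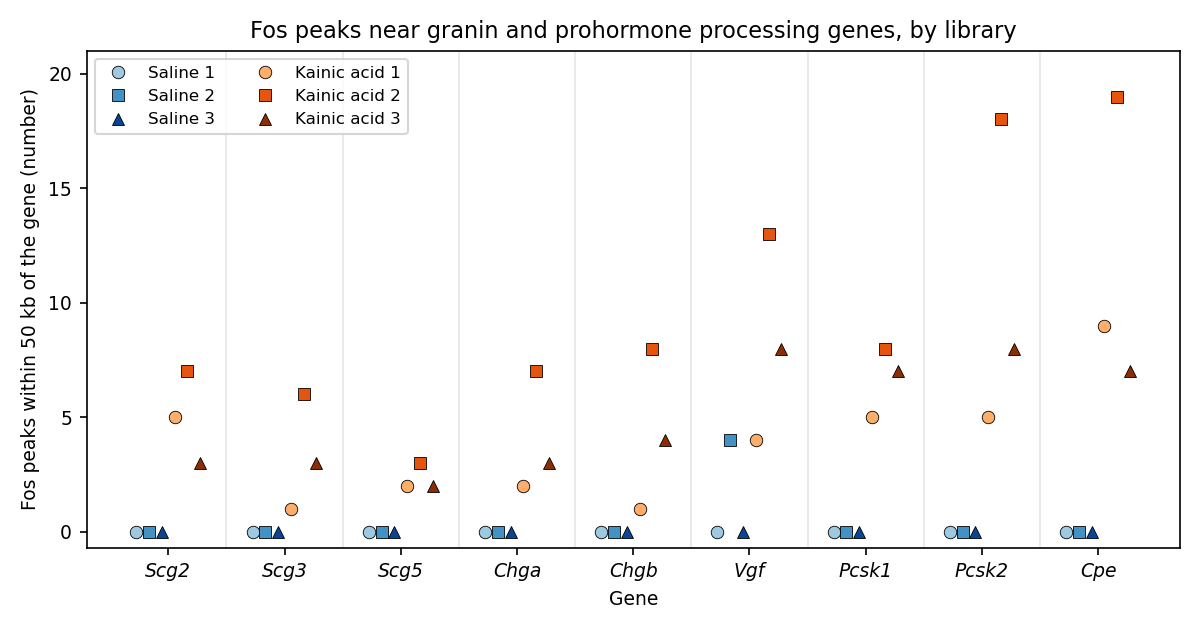
The number of Fos peaks within 50 kb of each gene is plotted for each of the 6 libraries, with blue symbols for saline and orange symbols for kainic acid. Only Vgf has saline peaks (4, in saline 2), and kainic acid 2 has the highest number at every gene, reaching 19 at Cpe.

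All 9 genes had a kainic acid region within 50 kb, and all 9 had a region in all 3 kainic acid lists. Over all protein-coding genes these shares were 62.7% and 42.5%. Within 10 kb, 8 of the 9 genes had a kainic acid region, all but Chga, against 40.0% of all genes, and in 7 of the 9 a region overlapped the gene span, against 28.5%. The exceptions for the span were Scg5 and Chga. The median number of kainic acid regions per gene was 5, against 1 over all protein-coding genes, and it was 3 without kainic acid replicate 1 or replicate 2. Longer windows hold more regions, and per 100 kb of window the median was 2.73 in the 9 genes and 0.871 over all genes. All 9 genes lay above that overall median, from 1.31 in Scg5 to 7.40 in Vgf. The range and the order of the genes depended on single libraries. Without kainic acid replicate 2 or without replicate 3, Vgf had 3.70 regions per 100 kb, Chgb 0.882 and Scg3 0.701, below Scg5 at 1.31. Scg2, at 4.73 without replicate 3, was then above Vgf. The overall median was 0 in both settings. With any kainic acid list left out, all 9 genes still had a region in the lists that remained, against 61.3%, 42.6% and 45.1% of all genes without replicates 1, 2 and 3.

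**Figure D3:**
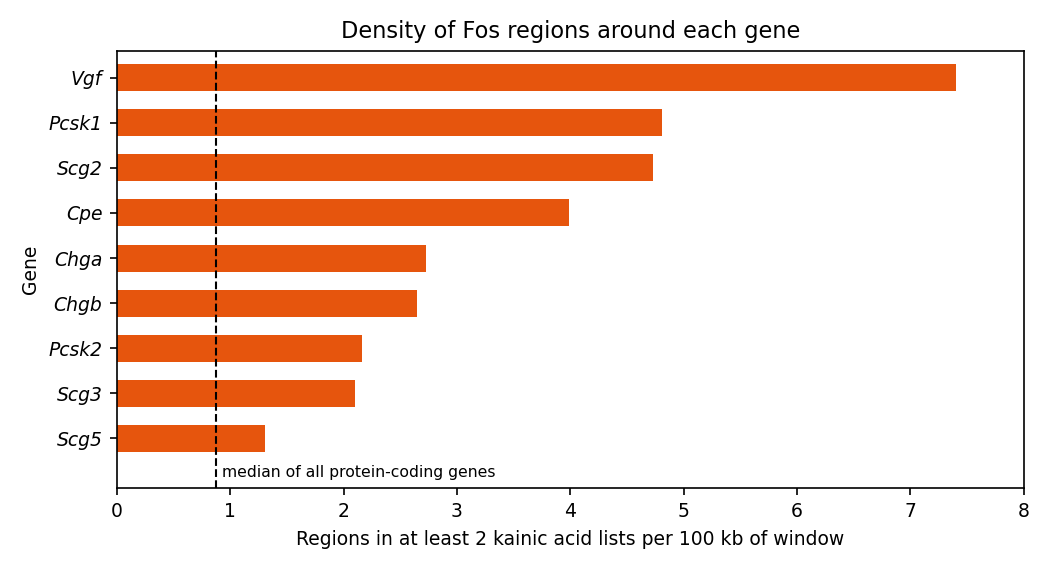
Bars give the number of kainic acid regions per 100 kb of window (gene span plus 50 kb on each side) for each gene, and the dashed line is the median of all protein-coding genes (0.871). With all 3 kainic acid lists Vgf has the highest density (7.40) and Scg5 the lowest (1.31), while without kainic acid 2 or kainic acid 3 Vgf has 3.70 and Scg3 is lowest (0.701).

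Vgf encodes a granin-like precursor of several secreted peptides and is induced by neurotrophins and activity. Its span of 8.05 kb (chr5:137025301-137033351) had 8 kainic acid regions within 50 kb. Of these, 4 were called in every kainic acid library, and 0.690% of protein-coding genes had as high a density. The region of best rank near any of the 9 genes was chr5:137050985-137052714, 17.6 kb beyond the upper end of Vgf. Its fold was 10.9, 18.9 and 12.2 in kainic acid replicates 1, 2 and 3, which put it at ranks 182, 300 and 206 of those lists (percentile ranks 1.21, 0.473 and 0.691). Its mean percentile rank was 0.791 ± 0.378 (SD, n = 3), and no saline list had a peak there. The region was picked for this mean, so its small spread follows in part from the choice. By the relation of fold and p-value in the lists, its summits had 47, 73 and 61 reads over local backgrounds of 3.42, 2.92 and 4.10 reads.

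At Vgf itself, 3 kainic acid regions overlapped the gene, and each was called in kainic acid replicates 2 and 3 but not in replicate 1. The region at the lower end of the span, chr5:137025716-137026650, had folds of 8.93 and 5.11 in replicates 2 and 3 (percentile ranks 7.62 and 24.2). The region at the upper end, chr5:137032850-137034059, had folds of 9.28 and 4.62 (percentile ranks 6.77 and 32.4). This was the single kainic acid region of the 47 with a saline peak: saline replicate 2 had a fold of 4.04 there, at rank 1800 of 3277 peaks. The saline summit was at chr5:137032951, and the summits of kainic acid replicates 2 and 3 were at 137033718 and 137033789. The peaks were joined by overlap, and with summits within 200 bp 0 kainic acid regions had a saline peak. Over all kainic acid regions, 2.01% had a saline peak. Spans of other protein-coding genes also lay within 50 kb of Vgf. Of the 5 regions outside Vgf, the nearest to it overlapped Ap1s1, which encodes a subunit of an adaptor complex for vesicle sorting. A region here is counted for Vgf by distance only.

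The other 3 peaks of saline replicate 2 near Vgf lay at no kainic acid region. The peak at chr5:137030120-137030655, inside Vgf, had a fold of 3.70 and that at chr5:137046006-137046265, at an end of Ap1s1, a fold of 5.31, and no kainic acid list had a peak at either. The remaining peak, in a region at chr5:136987090-136987535, had a fold of 4.34 and was met by a peak of kainic acid replicate 2 alone (fold 4.13). The 4 saline peaks had 21 to 25 reads at their summits, within the range of the kainic acid peaks near the 9 genes (10 to 79 reads).

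Scg2 encodes secretogranin II, the precursor of secretoneurin. Its span of 5.66 kb (chr1:79434366-79440026) is short, no other protein-coding gene lay within 50 kb, and the window held 5 kainic acid regions, 3 of them in all 3 lists. The best ranked, chr1:79431916-79433527, lay 839 bp beyond the 3′ end of the gene. Its fold was 5.78, 10.4 and 7.35 in kainic acid replicates 1, 2 and 3 (percentile ranks 18.1, 4.75 and 6.54), and no saline list had a peak there. The region at the start site, chr1:79439021-79440065, had folds of 5.74, 5.65 and 5.17 and percentile ranks of 19.8, 27.2 and 22.9, a narrow spread of 3.73 (SD, n = 3). Its summits lay 398, 577 and 521 bp downstream of the start site, inside the gene and on the other side of the start site from the CRE letters printed above. Another region, chr1:79437476-79438439, was also inside the gene in all 3 lists, with folds of 4.78, 3.51 and 4.63. The remaining 2 regions, farther beyond the 3′ end and 10.2 kb upstream, were called in replicates 1 and 2 only.

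Chga encodes chromogranin A, a major granin of chromaffin granules. Its span (chr12:102554941-102565027) had no kainic acid region within 10 kb, and the peaks nearest to it, 595 bp before the start and inside the gene, were called in kainic acid replicate 2 only. The best-ranked region was distant: chr12:102531839-102532841, 22.1 kb upstream and outside protein-coding genes, had folds of 8.16, 12.4 and 9.34 in replicates 1, 2 and 3. Its percentile ranks were 4.64, 2.54 and 2.44 in these lists, a small spread that follows in part from picking the best mean. The other 2 regions near Chga lay within Itpk1, an inositol phosphate kinase gene downstream.

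Chgb encodes chromogranin B. The region of best rank in its window, chr2:132741763-132742853, lay 38.8 kb upstream, within the span of Shld1. Its fold was 6.67, 17.9 and 10.8 in kainic acid replicates 1, 2 and 3 (percentile ranks 10.8, 0.595 and 1.26), with 29, 68 and 56 reads at the summits. It was high in every kainic acid list, less so in replicate 1. The region over the Chgb start site and its CRE letters, chr2:132781420-132782164, was weak in comparison: it was not called in replicate 1, and its fold was 4.69 in replicate 2 and 2.56 in replicate 3 (percentile ranks 42.3 and 97.6). Its strongest summits were 184 and 63 bp downstream of the start site. No saline list had a peak at either region.

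Scg3 encodes secretogranin III, which binds other granins at the granule membrane. It had 3 kainic acid regions, and the 1 in all 3 lists was inside the gene at chr9:75666356-75666997. Its fold was 3.90, 7.33 and 6.41 in replicates 1, 2 and 3, and its percentile ranks of 68.6, 13.8 and 11.1 differed widely. The other 2 regions lay within the spans of Tmod2 and Lysmd2 and were called in replicates 2 and 3 only.

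Scg5 encodes the chaperone that prohormone convertase 2 needs to mature. It had 2 regions, and both were in all 3 kainic acid lists. Without kainic acid replicate 2 or without replicate 3 it still had 2, while Scg3 and Chgb had 1 each. The region at chr2:113768698-113769232, 7.08 kb beyond the 3′ end, had folds of 4.47, 6.09 and 4.81 (percentile ranks 47.2, 22.4 and 28.7). The region at chr2:113848685-113849352, 19.6 kb upstream, ranked low, with folds of 2.87, 4.49 and 3.15. Over its span of 52.8 kb, the only peak inside the gene was called in replicate 2 alone.

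Pcsk1 encodes the prohormone convertase that acts early in the secretory pathway. It had 7 kainic acid regions, 4 in all 3 lists, and 5 of the 7 overlapped the gene. None overlapped another protein-coding gene, since no other had its span within 50 kb. Regions in all 3 lists followed the start site: chr13:75090605-75092159 had its summits 1403, 1414 and 1321 bp downstream in replicates 1, 2 and 3, and chr13:75094499-75095491 had its summits 4986, 5071 and 4934 bp downstream. The region nearest the start site had folds of 5.03, 8.74 and 5.23, and the next had 5.19, 6.11 and 6.72. Their mean percentile ranks were 20.7 ± 11.8 and 20.0 ± 9.61 (SD, n = 3), which differ by less than their spread. Another region in all 3 lists, chr13:75114067-75115218, lay deep in the gene with folds of 4.04, 7.98 and 4.75.

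Pcsk2 encodes prohormone convertase 2, which acts later and in mature granules. At 270.2 kb (chr2:143546133-143816284) it is the longest of the 9 genes, and 7 of its 8 kainic acid regions overlapped the gene. The other, chr2:143545132-143545880, ended 253 bp before the gene and had the best mean percentile rank at this gene, 16.8, over the 2 lists that called it. It was called in replicates 2 and 3, with folds of 8.90 and 5.00 and summits that lay 38 bp apart, and not in replicate 1. Inside the gene, 5 regions were in all 3 lists. The best ranked of these, chr2:143660156-143661040, had a mean percentile rank of 19.2 over 3 lists and 13.0 over replicates 2 and 3, ahead of the region before the gene on those lists. With any kainic acid list left out, or ranked by the authors' −log10 q, a region inside the gene ranked best. The region at chr2:143660156-143661040 lay deep in the gene, with summits 114407, 114673 and 114604 bp downstream of the start site, and had folds of 5.03, 7.03 and 6.47. Per 100 kb of window Pcsk2 had 2.16 regions, and 22.1% of protein-coding genes had as many or more.

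Cpe encodes carboxypeptidase E. Of its 8 kainic acid regions 5 were in all 3 lists, and 7 overlapped its span of 101 kb (chr8:64592542-64693109). The best ranked, chr8:64634239-64635243, had folds of 4.92, 13.4 and 6.75 in replicates 1, 2 and 3 (percentile ranks 33.9, 1.96 and 9.33). Its summits lay within 30 bp of each other, and it had 34, 79 and 57 reads there. The 79 reads in replicate 2 were the most at any summit near the 9 genes, while in replicates 1 and 3 the region beyond Vgf had more reads than this region. The broadest, chr8:64664682-64666454, was 1773 bp wide with folds of 5.28, 6.48 and 5.23, and its ranks were close together (27.0, 18.8 and 22.2). Of the 20 regions with a peak in any kainic acid list at Cpe, 12 were called in a single list.

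**Figure D4:**
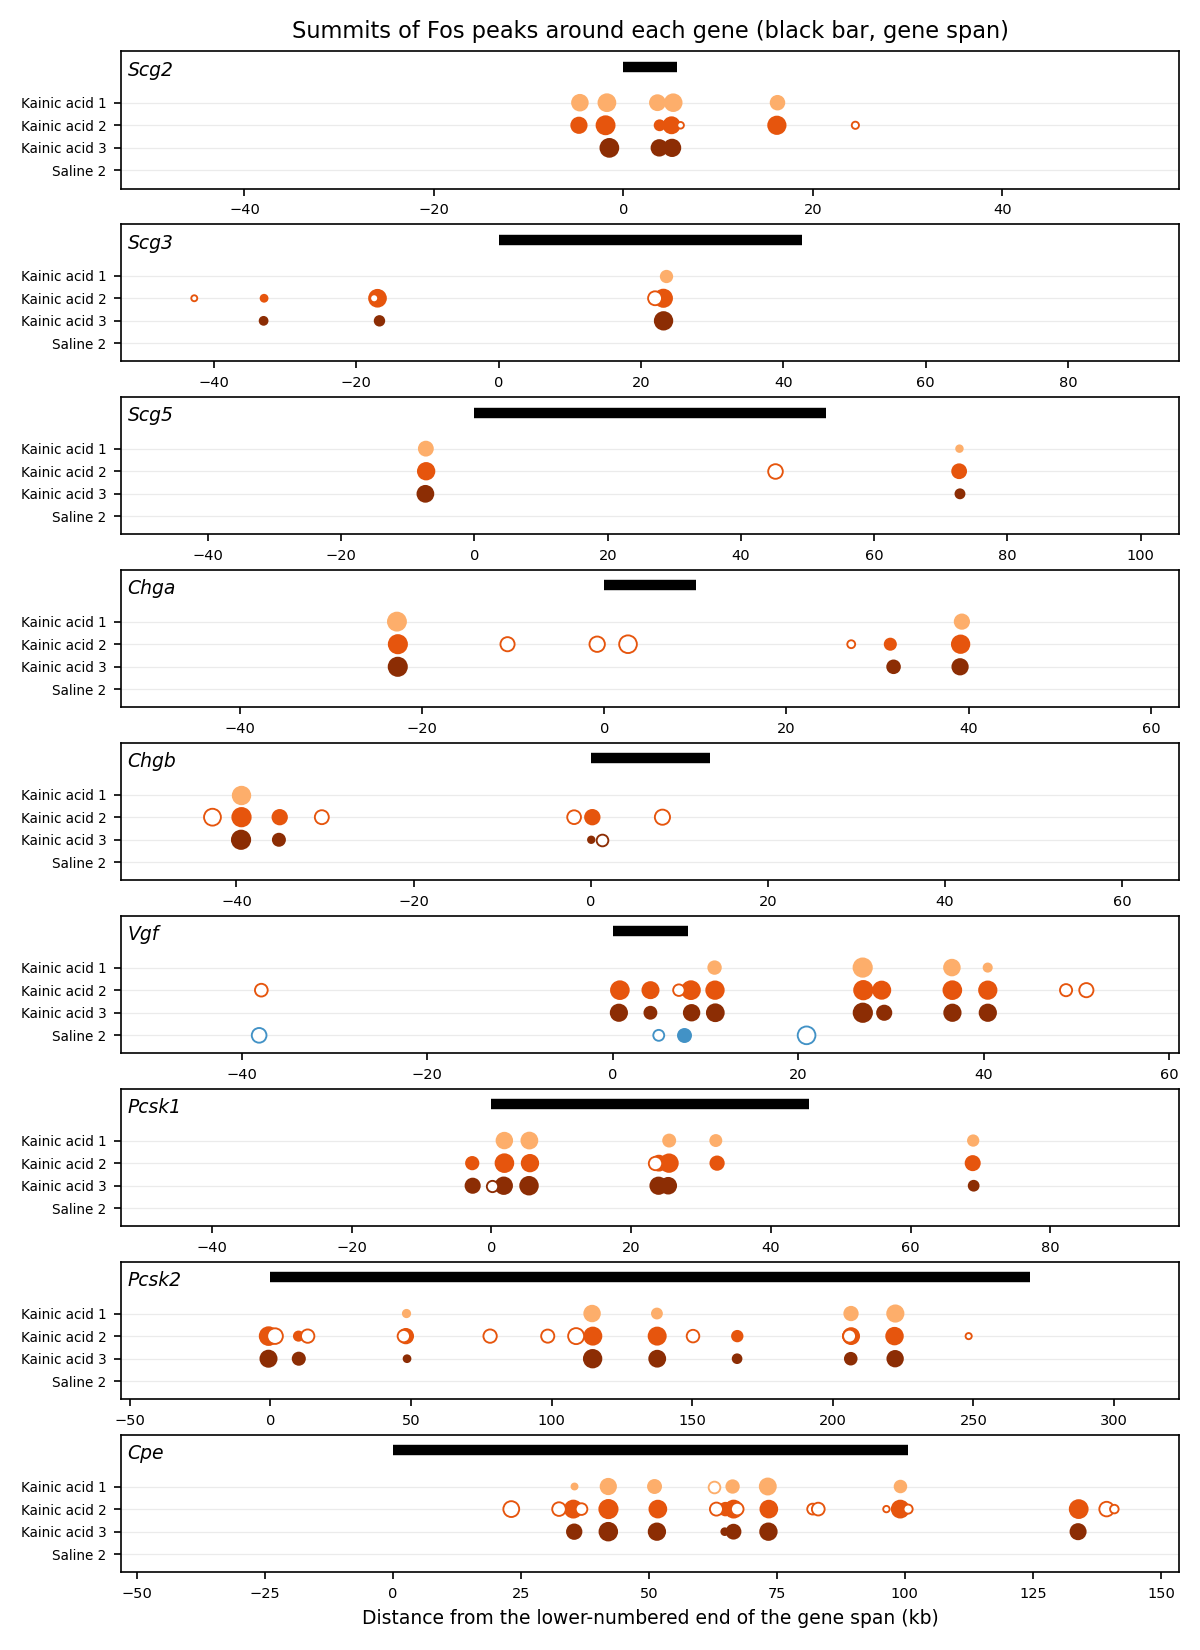
Circles mark peak summits in the 3 kainic acid lists and saline 2 (rows) against distance from the lower-numbered end of each gene span in kb, with larger circles for better percentile ranks and the strongest peak of a list shown per region. Filled circles belong to a region in at least 2 kainic acid lists and open circles do not; saline 2 has marks at Vgf only, and most open circles are in kainic acid 2.

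Support by replicates was uneven. The 9 windows held 90 regions with a kainic acid peak. All 3 libraries called 27 of them, 2 libraries called 20 and 1 library called 43. Of the 43, 40 came from kainic acid replicate 2, 2 from replicate 3 and 1 from replicate 1. Of the 20 regions in exactly 2 lists, 16 were shared by replicates 2 and 3, 4 by replicates 1 and 2, and 0 by replicates 1 and 3. The 27 regions in all 3 lists were 57.4% of the 47 kainic acid regions, against 44.4% over all kainic acid regions.

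Kainic acid regions were spread over gene bodies and flanks. Of the 47, 26 overlapped the span of their gene and 21 lay in the flanks, where 10 of them overlapped another protein-coding gene. Gene spans made up 37.9% of the windows. The regions numbered 4.74 per 100 kb of span and 2.33 per 100 kb of flank in the 9 genes, against 1.70 and 1.21 over all protein-coding genes. Within 1 kb of an end of their own gene lay 6 regions, 2 each at Scg2 and Vgf and 1 each at Chgb and Pcsk2. Counting ends of any protein-coding gene it was 10 of 47, against 9.88% of all kainic acid regions.

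The ranks of these regions covered nearly the whole range of each list. The median over the 47 regions of the mean percentile rank was 32.5, against 42.2 over all kainic acid regions. For regions in all 3 lists the medians were 29.8 and 30.3. Mean percentile ranks of 5 or better were held by 3 of the 47 regions, those near Vgf, Chgb and Chga described above, which is 6.38%, against 3.43% of all kainic acid regions. None of these 3 overlapped its gene: they lay 17.6, 38.8 and 22.1 kb away. Spearman's rho of the fold across regions in both lists was 0.394 for replicates 1 and 2 (31 regions), 0.696 for replicates 1 and 3 (27 regions) and 0.708 for replicates 2 and 3 (43 regions), as a description of regions that share libraries. In the 27 regions in all 3 lists, the highest and lowest summit lay a median of 137 bp apart (range 12 to 648 bp), against 122 bp over all such regions. Over all 47 regions the median width was 745 bp, against 686 bp over all kainic acid regions.

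**Figure D5:**
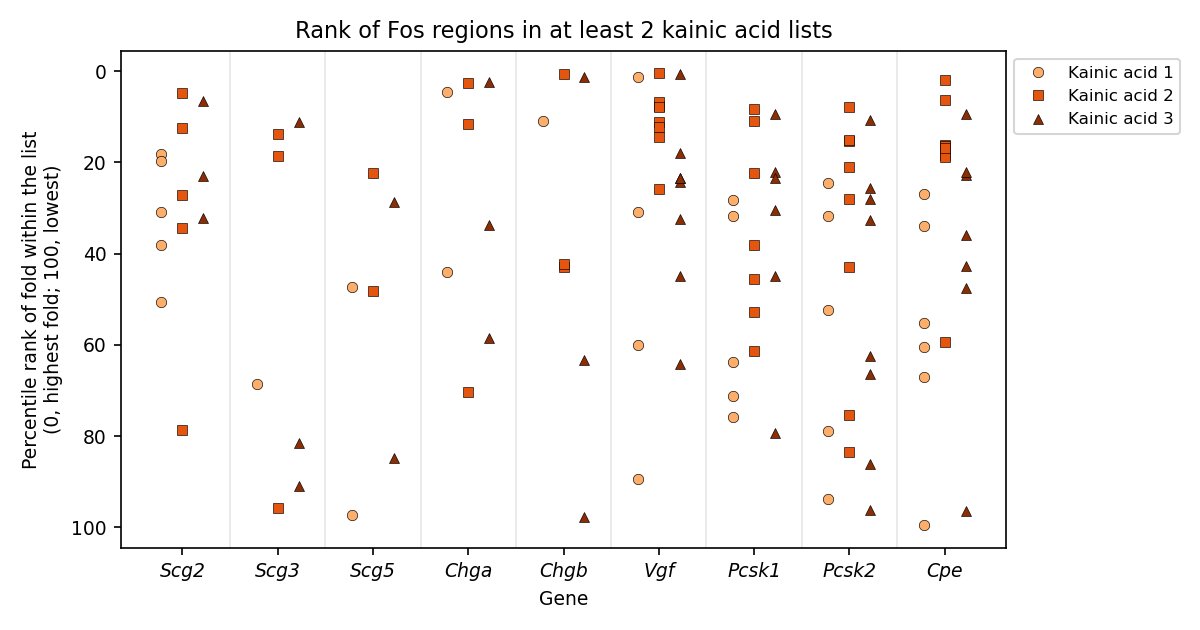
Each symbol is a kainic acid region in 1 kainic acid list, placed by the percentile rank of its fold in that list (0, at the top, is the highest fold). The best mean ranks belong to regions near Vgf, Chga and Chgb (0.791, 3.21 and 4.22), and the regions of Scg5 and Scg3 have no rank better than 11.1.

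Other genes of the regulated secretory pathway were described by the same rule. Of 15 such genes, 12 had a kainic acid region within 50 kb and 7 had one in all 3 lists, against 62.7% and 42.5% of all protein-coding genes. The median density was 0.833 per 100 kb, close to that of all genes. The most regions were near Pam, the enzyme that amidates peptides, with 19 in 375 kb of window. Ptprn2 had 15 and Ptprn had 14, both encoding tyrosine phosphatase-like proteins of the granule membrane. The window of Ptprn is short, so its density was 11.9 per 100 kb, above that of Vgf. The genes with 0 kainic acid regions were Pcsk1n, which encodes an inhibitor of prohormone convertase 1, Qpct and Gnas. Qpct encodes the enzyme that forms pyroglutamate at peptide ends, and Gnas encodes a G protein subunit and the granin-like NESP. Peaks of saline replicate 2 were found near 7 of the 15 genes, against 30.2% of all protein-coding genes. The windows of the 15 genes ran from 105 kb at Pcsk1n to 892 kb at Ptprn2, and longer windows hold more peaks.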

How the data were processed

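Each library has 1 deposited narrowPeak list. The submitters' processing notes name Trim Galore 0.6.4, Bowtie2 2.3.4.3, MACS2, deepTools 3.5.0 and mm10, and peak names in the files hold the tag of a mapping quality filter at 30. The calling threshold and the control track are not given in the sources used here. The deposited fold is a linear ratio within a library, the deposited −log10 p and −log10 q (p-value and q-value) belong to 1 library, and the deposited score is 10 times the −log10 q, rounded down; none is scaled between libraries, and lists carry no read totals, so the depth of a library is unknown.

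Peaks were merged at 1 bp overlap, and regions within 50 kb of gene spans (RefSeq, GRCm38.p6, 21883 protein-coding genes) were counted with Python 3.11.15, pandas 2.3.3 and SciPy 1.17.1. All 9 genes were matched. Per gene, the region of best mean percentile rank is named, as are regions at gene ends and regions with a saline peak. Further regions in all 3 lists were named after their values were seen. Reads at the summit (k) over background (λ) follow from the fold, taken as (k + 1)/(λ + 1), together with the Poisson p, and 168 of 168 peaks were solved within 0.001 in −log10 p. They rest on that inferred relation. Merging, counting and solving were tested on simulated data. Groups were compared by an exact permutation test. The 9 genes, the list of 15 other genes and the motifs were chosen with earlier results of these data known.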

Additional observations from a re-analysis of the deposited data

How the results depend on the processing

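Of 197 alternative values, 135 stayed on the same side or within the set limits (1.5 times for a count, 1 SD for a rank) and 62 moved. Only the difference between the groups could be marked as reversed, and 0 of its values were. The difference in log10 number of peaks was 1.37 to 1.72 with any single library left out, and its test cannot pass 0.05 at this size. With the replicate block, by the numbers the labels give to the libraries, it was 1.49 with an exact permutation p of 0.25, and 3 pairs cannot give less. No label ties a number to a shared animal or day, and too few saline peaks exist to check the pairing.

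The 47 kainic acid regions numbered 15 where −log10 q had to reach 10, 30 where each kainic acid list was limited to its 15009 highest folds and 27 where all 3 lists were required. Leaving out one kainic acid list gave 27 to 43, with 27 without replicate 2 and 31 without replicate 3. The number of genes with a region was 9 in each of these except at −log10 q 10, where it was 8, without Scg5. At a reach of 10 kb it was also 8, without Chga. The median per gene of 5 became 1, 3 and 3 in the first 3 of these settings and 3 to 4 with a list left out. The single region with a saline peak became 2 at a reach of 100 kb and 0 at −log10 q 5 or 10, with all 3 lists required and with summits within 200 bp. It ran from 0 to 1 with a library left out, being 0 without kainic acid replicate 2 or 3 or saline replicate 2.

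For single genes, 42 of 99 region counts changed by over 1.5 times, of which 41 were lower and 1 was higher, and Chga (reach 10 kb) and Scg5 (−log10 q 10) had 0. Without kainic acid replicate 2, Vgf had 4 regions, Pcsk1 4, Pcsk2 and Cpe 5 each, Scg2 3 and Scg3 and Chgb 1 each. Without replicate 3, Vgf had 4, Pcsk2 5 and Scg3 and Chgb 1 each, and without replicate 1 Scg2 had 3. Of 36 alternative ranks 2 moved, those of Chga (4.94) and Vgf (1.17) ranked by −log10 q. The limit of 1 SD was taken over the same kainic acid lists. Dropping 1 list moves a region's mean rank by less than that. Such ranks could not count as moved where the same region stayed best. With kainic acid replicate 1, 2 or 3 dropped, the rank at Scg3 (31.2, SD 32.5) became 12.4, 39.8 or 41.2. At Cpe (15.1, SD 16.7) it became 5.65, 21.6 or 17.9. All of these were counted as within the limit. In 7 of the 36 another region was best, 4 at Pcsk2 and 3 at Pcsk1. No kainic acid region lay near the 50 kb limit: the farthest inside was 38.8 kb from Chgb and the nearest outside 59.2 kb from Chgb. Regions called in a single kainic acid list lay farther out, up to 42.9 kb from Vgf.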
